A study of Rattus norvegicus with 3 samples.

Results

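Titin is the giant spring protein that runs from the Z-disc to the M-band of the sarcomere. Several small proteins dock on it or on the nearby Z-disc, respond to stretch and stress, and in part also work in the nucleus. The genes described here are Ankrd1 and Ankrd2, muscle ankyrin repeat proteins that bind the N2A region of titin, the LIM domain proteins Csrp3, Fhl1 and Fhl2, and the actin-binding Xin protein gene Xirp1. They were named as 6 rat genes, and array probes were assigned to them through their RefSeq accessions. Probes were found for 5 of the 6, on 6 probes and 19 spots per array, out of 15168 named genes on the array. No probe was matched to Xirp1, which is not analysed here. The group was picked with earlier results of these data in view, for the large and opposite changes of Ankrd1 and Ankrd2, so the folds below are descriptions and carry no test.

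Male rats aged 12 weeks, with Wistar Honnover as the labelled strain background, gave 3 muscles, each measured on 1 one-colour Agilent array: the soleus 28 days after the left sciatic nerve was transected over about 5 mm in the gluteal region, the normal plantaris and the normal soleus. The normal soleus array is titled only Post, and its source name gave the group. The soleus is a slow postural muscle, the plantaris a faster neighbour in the calf. The normal muscles came from untreated rats, and none of the 3 groups is labelled as sham-operated. The labels do not say how many animals an array stands for. A single array for each muscle leaves no spread between animals, and the number of arrays limits the precision of every value. Errors (±) are those of the scanner software and cover measurement only. Levels are given as multiples of the same array's 75th percentile, taken over its 58717 gene spots, and folds in log2 units, where 1 unit is 2-fold. In whole muscle, fewer fibres of a kind and less RNA per fibre cannot be told apart.

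On the 3 arrays 64.2% to 67.0% of 30367 probes were well above background, and no spot was saturated. The muscles carried the markers of their labels. In plantaris all 8 measured slow fibre markers were below their normal soleus level by 2-fold or more, and 8 of 9 fast fibre markers were above it by as much. In denervated soleus 7 of 8 markers of regenerating or denervated fibres were at least 2-fold higher than in normal soleus. The exception was Myh8, with a log2 fold of -0.51. Myh8 made up most of the summed level of that list, which was 367 in denervated soleus, 832 in plantaris and 373 in normal soleus. Of 9 fast fibre markers 4 were also at least 2-fold higher in denervated over normal soleus. Among all genes 8.73% were that much higher in denervated soleus, and in plantaris 5.71% were higher and 6.11% lower. Of 6 genes listed as cardiac markers, Nppa, Nppb and Mybpc3 were well above background on no array, Myh6 and Ryr2 were on all 3, and Tnni3 was on both soleus arrays but not in plantaris. Myh6 stood at 247 times the array's 75th percentile in denervated soleus, 126 times in plantaris and 547 times in normal soleus. The slow myosin gene Myh7 stood at 184, 84.9 and 521 times in the same order. Whether the Myh6 probe reads Myh6 alone was not tested. Plantaris and normal soleus shared 1 slide and 1 scan, which did not hold the denervated soleus. Effects of denervation and of the slide therefore cannot be told apart.

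The 2 ankyrin repeat genes stood at opposite ends in denervated soleus. Ankrd1, which encodes a nuclear and sarcomeric stress protein best known from the strained heart, stood at 8.90 times the 75th percentile in denervated soleus, 0.863 times in plantaris and 0.431 times in normal soleus. Ankrd2, its relative of slow muscle fibres, stood at 0.346 times in denervated soleus, 5.92 times in plantaris and 115 times in normal soleus. The orders are reversed, with denervated soleus highest for Ankrd1 and lowest for Ankrd2, and plantaris in between for both. Each step in either order was larger than the 95% interval of its measurement error.

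**Figure D1:**
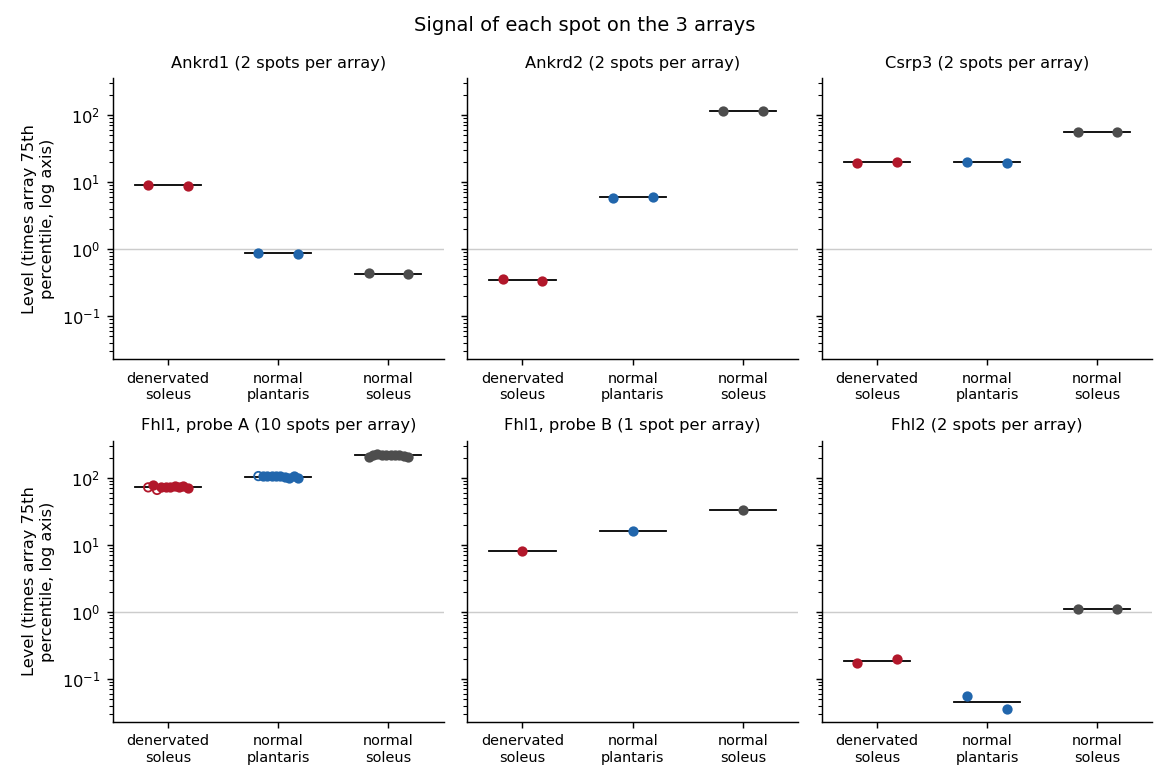
Level of every spot of the 6 probes on the denervated soleus, plantaris and normal soleus arrays, as a multiple of the array's 75th percentile on a log axis; points are spots, open points bear an outlier flag, and black lines are the means used. Ankrd1 is highest in denervated soleus (8.90) and Ankrd2 in normal soleus (115), while the other probes are highest in normal soleus.

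The repeat spots of Ankrd1 lay close together. Its processed signals were 11108 and 10558 scanner units in denervated soleus, 654.0 and 630.4 in plantaris, and 400.7 and 379.1 in normal soleus. No 2 muscles overlapped. In log2 units Ankrd1 was higher by 4.37 ± 0.21 in denervated over normal soleus, which is 20.6-fold, and by 3.37 ± 0.20 in denervated soleus over plantaris, which is 10.3-fold. Of 10052 genes measured on both soleus arrays, 14 had a higher fold. In plantaris over normal soleus it stood at the 2-fold line with 1.0 ± 0.21, and below it at 0.86 with the normexp background model, 0.96 with quantile normalization and 0.89 with the authors' values.

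Markers of other cell types also differed between the arrays, and their counts here are for denervated over normal soleus unless stated. Among all genes 8.73% were at least 2-fold higher and 13.4% lower in that comparison, and 12.0% were higher in denervated soleus over plantaris. Of 5 measured adipocyte markers 4 were at least 2-fold higher, and their summed level was 67.7 times the 75th percentile in denervated soleus, 13.0 in plantaris and 15.4 in normal soleus, with Lep well above background on no array. Of 9 fibroblast and tendon markers 2 were at least 2-fold higher, with summed levels of 271 in denervated soleus, 211.9 in plantaris and 119 in normal soleus. Of 11 measured smooth muscle and pericyte markers none was 2-fold higher and 2 were lower, Des (-1.21) and Cnn1 (-1.21). Cnn1 was not well above background in denervated soleus, and Des was within 2-fold under quantile normalization and with the authors' values. The sum over 12 such genes was 51.4 in denervated soleus, 111 in plantaris and 105 in normal soleus. Most of that sum was Des, which muscle fibres also express, at 35.2 in denervated soleus, 93.4 in plantaris and 81.4 in normal soleus. None of 10 macrophage markers was past 2-fold in denervated over normal soleus, but 4 of 10 were at least 2-fold higher in denervated soleus over plantaris, with summed levels of 33.3 in denervated soleus, 20.6 in plantaris and 28.7 in normal soleus. Among 8 Schwann cell and nerve markers 2 were higher and 4 lower, and among 7 endothelial markers 3 were lower. The part of these cells in the Ankrd1 level was not tested.

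The Ankrd2 spots read 436.6 and 406.2 scanner units in denervated soleus, 4368 and 4437 in plantaris, and 104565 and 102868 in normal soleus. Even the lowest of these was measured signal, since the denervated spots had a median pixel brightness of 404 and 408.5 over local backgrounds of 28 and 31. In log2 units Ankrd2 was at -8.38 ± 0.21 in denervated over normal soleus, 332-fold lower, and 0 of 10052 genes had a lower fold. In plantaris over normal soleus it was at -4.28 ± 0.20, 19.4-fold lower, where 2 of 10054 genes had a lower fold. The denervated soleus also stood below plantaris, at -4.10 ± 0.21 or 17.1-fold. Ankrd2 thus had a lower level after denervation than in the fast muscle. On the same arrays slow fibre markers had a median log2 fold of -1.5 in denervated over normal soleus, with 7 of 8 past 2-fold, and of -2.63 in plantaris over normal soleus. Under quantile normalization the denervated median was -0.82, no longer past 2-fold. Their summed level was 1241 times the 75th percentile in denervated soleus, 533 in plantaris and 2894 in normal soleus, so the slow markers as a sum stood lowest in plantaris and Ankrd2 lowest in denervated soleus.

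The 3 LIM protein genes were lower in denervated than in normal soleus, and lower in plantaris than in normal soleus. LIM domains are zinc-binding folds that dock other proteins. Among the 5 measured genes, Ankrd1 was past 2-fold on the high side in denervated over normal soleus and the other 4 on the low side, against 8.73% higher, 13.4% lower and 22.1% either way among 11318 genes. The same counts, 1 and 4, stood in plantaris over normal soleus, against 5.71% higher, 6.11% lower and 11.8% either way among 11015 genes. Both comparisons share the normal soleus array, and nothing is read from these counts, since the genes were picked on such folds. The median log2 fold of the 5 was -1.56 in denervated and -1.51 in plantaris over normal soleus, against 0.02 over all genes in each.

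Csrp3 encodes the muscle LIM protein, a Z-disc protein whose loss causes dilated hearts in mice. Its spots read 23667 and 24471 scanner units in denervated soleus, 14798 and 14441 in plantaris, and 50654 and 50200 in normal soleus. It stood at 19.8 times the 75th percentile in denervated soleus, 19.7 times in plantaris and 55.8 times in normal soleus. Denervated soleus and plantaris were level with each other (0.01 ± 0.20, or -0.07 with centring on the median and 0.47 under quantile normalization) and both below normal soleus. The log2 fold was -1.5 ± 0.20 in denervated and -1.51 ± 0.20 in plantaris over normal soleus, 2.82-fold and 2.84-fold lower. In denervated over normal soleus 542 of 10052 genes had a lower fold.

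Fhl1 encodes a LIM protein abundant in skeletal muscle, mutated in people with reducing body myopathy. It was read by 2 probes, 1 with 10 spots per array and 1 with a single spot. On the first, which stood for the gene, 8 of 10 spots without an outlier flag ran between 84761 and 94170 scanner units in denervated soleus, with a median of 89275. In plantaris 9 spots ran between 73801 and 79863 with a median of 78433, and in normal soleus 10 spots between 184601 and 204869 with a median of 195839. No spot of the normal soleus overlapped the other arrays, and before centring the denervated spots stood above those of plantaris. After centring, the levels were 73.2 times the 75th percentile in denervated soleus, 104 times in plantaris and 216 times in normal soleus, with spot-to-spot coefficients of variation of 3.03%, 2.59% and 3.20%. The log2 fold in denervated over normal soleus was -1.56 ± 0.20 on this probe, and single spots gave -1.62 to -1.48. The second probe gave -2.05 ± 0.20. In plantaris over normal soleus the probes gave -1.05 ± 0.20 and -1.07 ± 0.20, and the first came to -0.98 with centring on the median. Denervated soleus stood below plantaris by -0.51 ± 0.20 and -0.98 ± 0.20 on the 2 probes, a direction that turned to 0.26 under quantile normalization.

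Fhl2 encodes a LIM protein that docks on titin and works as a transcription cofactor, and is best known from the heart. Its spots read 211.3 and 239.8 scanner units in denervated soleus, 41.5 and 26.4 in plantaris, and 981.8 and 1006 in normal soleus. The plantaris spots were faint, with a median pixel brightness of 80.5 and 66 over local backgrounds of 36 and 37. The levels were 0.185 times the 75th percentile in denervated soleus, 0.0445 times in plantaris and 1.1 times in normal soleus. Fhl2 was at -2.57 ± 0.21 in denervated and at -4.63 ± 0.29 in plantaris over normal soleus, 5.95-fold and 24.7-fold lower. No gene of 10054 measured on both arrays had a lower fold in plantaris, but with normexp background that fold was -2.99. Denervated soleus stood above plantaris by 2.05 ± 0.29, or 0.80 with normexp background. Among the 5 genes, 2 were at least 2-fold higher and 1 lower in denervated soleus over plantaris, against 12.0% higher, 16.7% lower and 28.7% either way among 11371 genes.

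**Figure D2:**
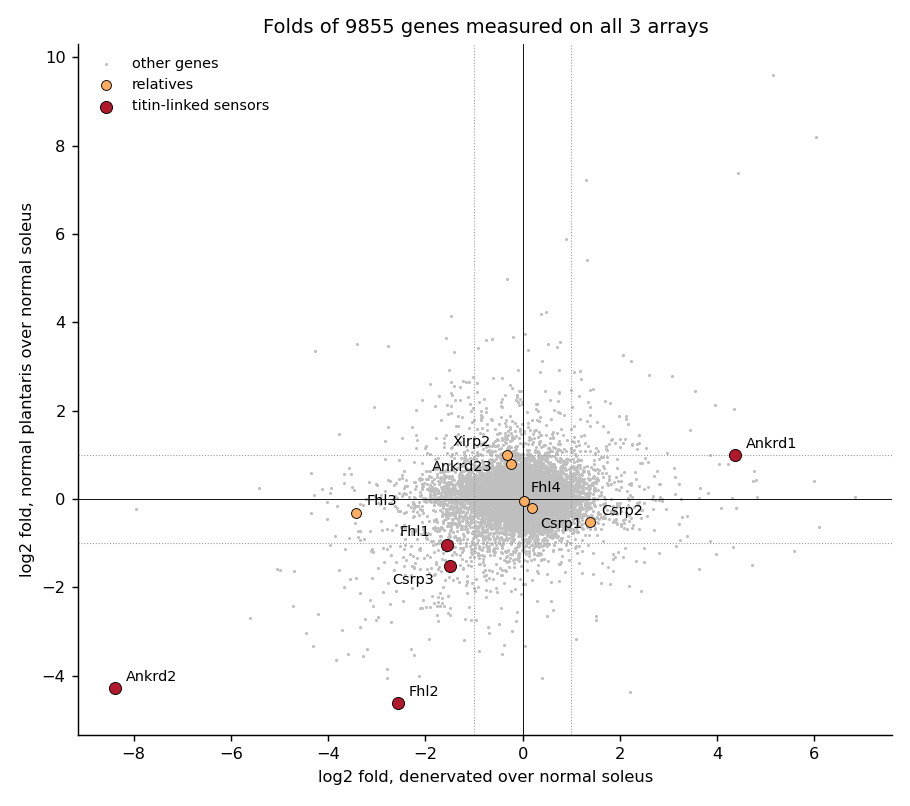
Log2 fold of denervated over normal soleus (horizontal) against log2 fold of plantaris over normal soleus (vertical) for 9855 genes well above background on all 3 arrays, with dotted lines at 2-fold. Ankrd2 (-8.38, -4.28) and Fhl2 (-2.57, -4.63) lie at the lower left edge and Ankrd1 (4.37, 1.0) at the right, while Csrp3 and Fhl1 lie nearer the bulk of the genes; both axes share the normal soleus array.

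Start regions of the genes were read to see what those that stood lower share in sequence. The RefSeq promoter table of build GRCr8 held windows for 4 of the 6 genes, and Ankrd1 and Csrp3 had none there. The 250 bases before each start were searched on both strands for the E-box CANNTG of the myogenic factors, the M-CAT element CATTCC of the TEAD factors, the TATA box TATAAA, and the CArG box of serum response factor and the MEF2 site, both in their usual consensus forms. Of 33469 such windows of rat genes 65.5% held an E-box, 12.1% an M-CAT element, 12.9% a TATA box, 1.5% a CArG box and 2.96% a MEF2 site. A match describes the letters and is not a binding site. The windows of Ankrd2 and Fhl2 are shown because these genes had the lowest folds, with that of Fhl1 beside them, and capitals mark the matches.
Ankrd2 (chr1:250796169-250796418, plus strand): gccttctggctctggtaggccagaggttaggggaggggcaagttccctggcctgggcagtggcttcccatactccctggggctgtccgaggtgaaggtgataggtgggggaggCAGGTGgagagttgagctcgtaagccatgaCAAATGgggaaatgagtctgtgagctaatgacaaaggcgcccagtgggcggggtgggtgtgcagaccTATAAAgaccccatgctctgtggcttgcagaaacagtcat
Fhl2, upstream start (chr9:52954541-52954790, minus strand): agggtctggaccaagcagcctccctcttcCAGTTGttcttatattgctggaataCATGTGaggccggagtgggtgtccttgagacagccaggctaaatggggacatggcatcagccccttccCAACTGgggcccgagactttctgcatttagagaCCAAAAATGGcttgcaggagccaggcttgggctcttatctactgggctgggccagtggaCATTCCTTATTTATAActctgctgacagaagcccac
Fhl2, downstream start (chr9:52923327-52923576, minus strand): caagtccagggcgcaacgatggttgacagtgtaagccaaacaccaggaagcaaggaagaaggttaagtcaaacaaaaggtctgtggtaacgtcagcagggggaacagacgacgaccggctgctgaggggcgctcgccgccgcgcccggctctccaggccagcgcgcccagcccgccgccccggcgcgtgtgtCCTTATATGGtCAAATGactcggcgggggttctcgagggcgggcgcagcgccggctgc
Fhl1 (chrX:139638246-139638495, plus strand): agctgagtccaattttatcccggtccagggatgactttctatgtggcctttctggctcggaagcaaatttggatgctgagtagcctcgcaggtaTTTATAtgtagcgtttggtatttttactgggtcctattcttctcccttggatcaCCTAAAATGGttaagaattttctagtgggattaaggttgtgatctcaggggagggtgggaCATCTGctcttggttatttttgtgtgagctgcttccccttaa

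Both Fhl2 windows held a CArG box, CCAAAAATGG at 95 to 86 bases before the upstream start and CCTTATATGG at 58 to 49 bases before the downstream start. The upstream window also held 3 E-boxes, an M-CAT element at 36 to 31 bases before the start and, next to it, a MEF2 site at 30 to 21 bases that overlaps a TATA box match on the other strand. Of the 2 Fhl1 windows the one shown held a CArG box, CCTAAAATGG at 102 to 93 bases before the start, with an E-box and a TATA box match, and the other held 2 E-boxes and none of the other motifs. The Ankrd2 window held 2 E-boxes and a TATA box at 40 to 35 bases before the start, and no CArG, M-CAT or MEF2 letters. Of 3 Xirp1 windows 2, which overlap, held the same MEF2 site.

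Relatives within each family differed in their folds. Among the muscle ankyrin repeat genes, Ankrd23, the third that binds titin, stood at 12.0 times the 75th percentile in denervated soleus, 24.4 times in plantaris and 14.1 times in normal soleus. Its log2 fold was -0.24 ± 0.20 in denervated over normal soleus, or 0.08 under quantile normalization, and 0.79 ± 0.20 in plantaris over normal soleus. Within this family of 3 the denervated folds thus ran from -8.38 through -0.24 to 4.37.

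In the CSRP family Csrp2, a LIM protein of smooth muscle and other mesenchymal cells, went opposite to Csrp3 after denervation. It stood at 2.03 times the 75th percentile in denervated soleus, 0.541 times in plantaris and 0.775 times in normal soleus, a log2 fold of 1.39 ± 0.20 in denervated and -0.52 ± 0.20 in plantaris over normal soleus. The marker levels given above bear on this gene as well, and their part in it was not tested. Csrp1, the third member, was at 0.18 ± 0.20 and -0.21 ± 0.20.

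In the FHL family Fhl3, an actin-binding LIM protein of muscle, had a lower denervated fold than Fhl1 or Fhl2. It stood at 0.634 times the 75th percentile in denervated soleus, 5.50 times in plantaris and 6.82 times in normal soleus. The log2 fold was -3.43 ± 0.20 in denervated but -0.31 ± 0.20 in plantaris over normal soleus. Fhl2 and Fhl3 were therefore both far lower after denervation, whereas in plantaris Fhl2 alone of the 2 was far lower. Fhl4 was faint and stayed within its error (0.02 ± 0.23 and -0.05 ± 0.24, with signs that turn under some settings), and Fhl5 was well above background on no array. Xirp2, the relative of Xirp1 at the Z-disc, was at -0.32 ± 0.20 in denervated and 1.0 ± 0.20 in plantaris over normal soleus, the plantaris fold being below 2-fold with normexp background, quantile normalization and the authors' values.

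**Figure D3:**
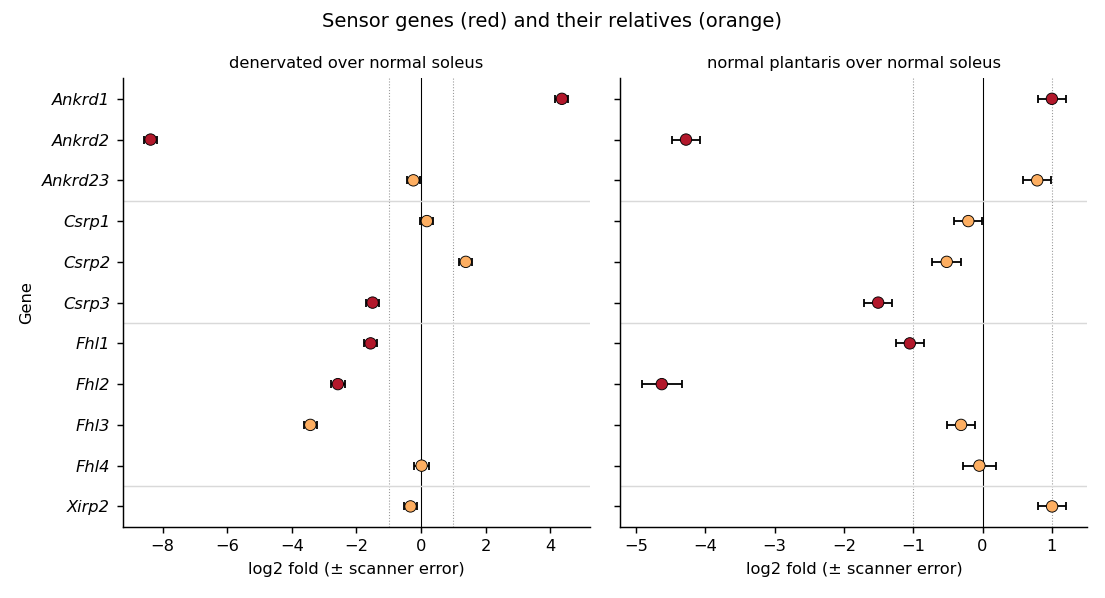
Log2 fold of each measured gene of the ankyrin repeat, CSRP, FHL and Xin families, in denervated over normal soleus (left) and plantaris over normal soleus (right); bars are scanner errors and dotted lines 2-fold. Ankrd1 and Csrp2 are the only genes past 2-fold on the high side at left, and Fhl3 is low at left (-3.43) but not at right (-0.31).

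Titin itself is not analysed here, as no probe was named for it. For the lists that follow, the shares of all genes past 2-fold were 13.4% lower and 8.73% higher in denervated over normal soleus. In plantaris over normal soleus these shares were 6.11% lower and 5.71% higher. Of 12 measured genes for titin's I-band and M-band partners 4 were at least 2-fold lower and none higher in denervated over normal soleus, with a median of -0.47 against 0.02 over all genes. The 4 were Smyd1, a methyltransferase of sarcomere assembly (-1.79), the small heat shock protein Cryab (-1.71), Myom2, an M-band protein of fast fibres (-1.68), and Capn3, the protease anchored on titin (-1.19, or -0.94 with the authors' values). In plantaris over normal soleus Myom2 stood at 1.80 and was the 1 gene past 2-fold, while Cryab was at -1.0, just within it, and at -1.5 under quantile normalization, and the median was -0.03, or 0.03 with centring on the median. The ligase genes Trim54, Trim55 and Trim63 were at -0.33, -0.17 and -0.53 in denervated over normal soleus.

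Of 20 measured Z-disc and costamere genes 7 were at least 2-fold lower and 1 higher in denervated over normal soleus (median -0.20, or 0.04 with the authors' values). Over all genes 13.4% were that much lower and 8.73% higher. Pdlim7, 1 of the 7, was at -1.465 on the probe that stood for it and at -0.32 on another. Itgb1bp2, which encodes melusin, an integrin-binding sensor of mechanical load, had 0.288 times the 75th percentile in denervated soleus against 2.76 times in normal soleus, a log2 fold of -3.26 ± 0.21. The Z-disc proteins Myot and Actn2 stood at -2.16 and -1.75, and Flnc, the filamin that binds Xin proteins, at -1.47. Parva, a partner of integrin-linked kinase, was higher at 1.13, or 0.77 with normexp background. Smpx, a small muscle protein with links to stretch, was at -0.36 ± 0.20. In plantaris over normal soleus 2 of these 20 genes were lower, Actn2 (-1.15) and Bag3 (-1.12), and Pdlim3 was higher (1.35). Itgb1bp2, at -0.91 in that comparison, came to -1.02 with the authors' values, just past 2-fold.

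Ankrd1 is a textbook target of YAP and TEAD, the factors that read cell tension, and the other genes of that list were counted beside it. Of 12 measured genes 2 were at least 2-fold lower in denervated over normal soleus, with a median of 0.21, and no fold or bound reached 2-fold on the high side in the main setting. The shares over all genes were 13.4% lower and 8.73% higher, and nothing is read from these counts. The classic targets Ccn1 and Ccn2 were at -0.72 ± 0.20 and 0.49 ± 0.20, and Tead1 stood at -1.47. Amotl2, well above background in denervated soleus but in neither normal muscle, had a bound of 0.89 ± 0.70 (1.13, past 2-fold, with the authors' values and 0 with normexp background). Vgll2, a muscle cofactor of the TEAD proteins, was at -3.08 ± 0.21 in denervated and -1.19 ± 0.20 in plantaris over normal soleus. In plantaris it was the 1 gene of 11 past 2-fold in the main setting, while Ccn2, at -0.99, came to -1.1 with the authors' values.

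Serum response factor and its MRTF cofactors couple actin dynamics to transcription. Of 12 measured factors and targets 5 were at least 2-fold lower and none higher in denervated over normal soleus (median -0.90). Of the 5, Cnn1 was a bound (-1.21 ± 0.46), and Smyd1 was also counted with the titin partners. Beside these counts stand 13.4% lower and 8.73% higher over all genes in that comparison. Tpm1, at 0.76 there, came to 1.25 under quantile normalization and 1.0 with the authors' values, just past 2-fold, so that none higher does not hold in those settings. Skeletal actin Acta1 stood at -2.44 ± 0.20, and Abra, which encodes the actin-binding activator STARS, at -2.28 ± 0.20. In plantaris over normal soleus Abra went the other way at 1.63, Tpm1 was at 3.55 on 1 probe and -0.12 on another, and cardiac actin Actc1 was at -2.75. Srf itself was at -0.87 ± 0.20 and 0.19 ± 0.20 in the 2 comparisons.

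Among 9 measured genes for proteins known to work with ANKRD1 or ANKRD2, 3 were at least 2-fold lower and 1 higher in denervated over normal soleus (median -0.15, or 0.10 with the authors' values). All genes together had 13.4% lower and 8.73% higher. Casq2, the calsequestrin of heart and slow fibres, stood at -2.98 in denervated and -2.68 in plantaris over normal soleus, where it was the 1 gene of 9 past 2-fold. Desmin, Des, was at -1.21, or -0.77 under quantile normalization and -0.96 with the authors' values, and the kinase Akt2 at 1.20, or 0.77 with normexp background.

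**Figure D4:**
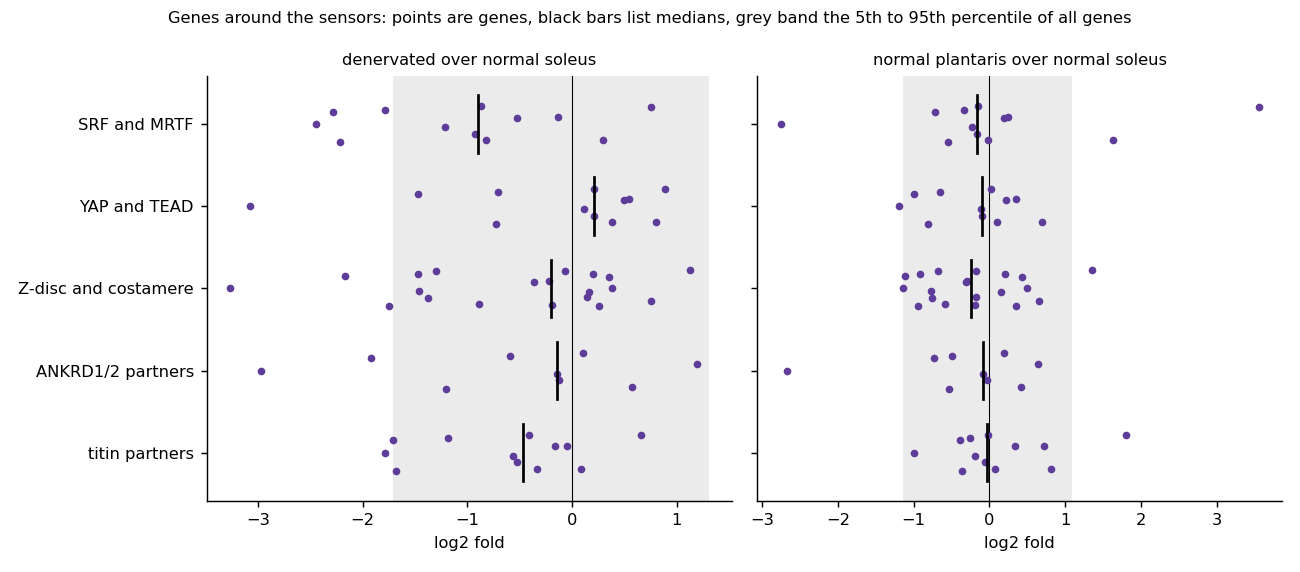
Log2 fold of each measured gene of 5 lists around the sensor genes, in denervated over normal soleus (left) and plantaris over normal soleus (right); points are genes, black bars list medians, and the grey band spans the 5th to 95th percentile of all genes. The lowest points at left are Itgb1bp2 (-3.26), Vgll2 (-3.08) and Casq2 (-2.98).

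Likeness of pattern was measured as the distance between genes in the plane of the 2 folds over normal soleus, in log2 units, over 9855 genes well above background on all 3 arrays. Ankrd2 had no gene within 1 unit, and the nearest were Mettl21c at a distance of 3.19, Perm1 at 4.07 and Msln at 4.09. Ankrd1 had 7 genes within 1 unit, with Ppp1r14c (0.25), Fibin (0.39, whose second probe read 3.05 in denervated over normal soleus) and the desaturase gene Scd (0.51) nearest. The errors of the 2 Ppp1r14c folds, 0.35 and 0.38, were larger than its distance. Fhl2 had 3, namely Epn3 (0.63), whose second probe read -1.16 in plantaris over normal soleus, Colq (0.76) and the aquaglyceroporin gene Aqp7 (0.82). Csrp3 and Fhl1 lay among many genes, 279 and 513 within 1 unit, with Ncf1, Tceal7 and Actr3b nearest to Csrp3 at 0.09 to 0.17 and Ly6h, Hmgn3 and Tcta nearest to Fhl1 at 0.04 to 0.09. The errors of these genes' folds, 0.20 to 0.23, were larger than those distances, so which gene is nearest is not resolved. The second probe of Ly6h, not well above background on both arrays, read -0.44 in denervated and -0.13 in plantaris over normal soleus. Second probes of Tceal7 (-1.89 and -1.79) and Hmgn3 (-1.24 and -1.01) were also lower in both. These distances rest on 3 arrays and describe them only.

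The folds of the 5 genes over normal soleus kept their sign under all 9 other settings tried. For Ankrd1, Ankrd2, Csrp3 and Fhl2, however, only normexp background, quantile normalization, centring on the median and the authors' values could move a fold. Each of these genes has 1 probe with 2 unflagged spots, well above background on every array. The settings for filters, outlier spots, probes and repeat spots therefore could not alter their values. The denervated fold ran from 4.10 to 4.61 for Ankrd1, from -8.39 to -8.13 for Ankrd2, from -1.51 to -1.13 for Csrp3, from -1.80 to -1.11 for Fhl1 and from -2.61 to -2.19 for Fhl2. All of these stayed past 2-fold.

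**Figure D5:**
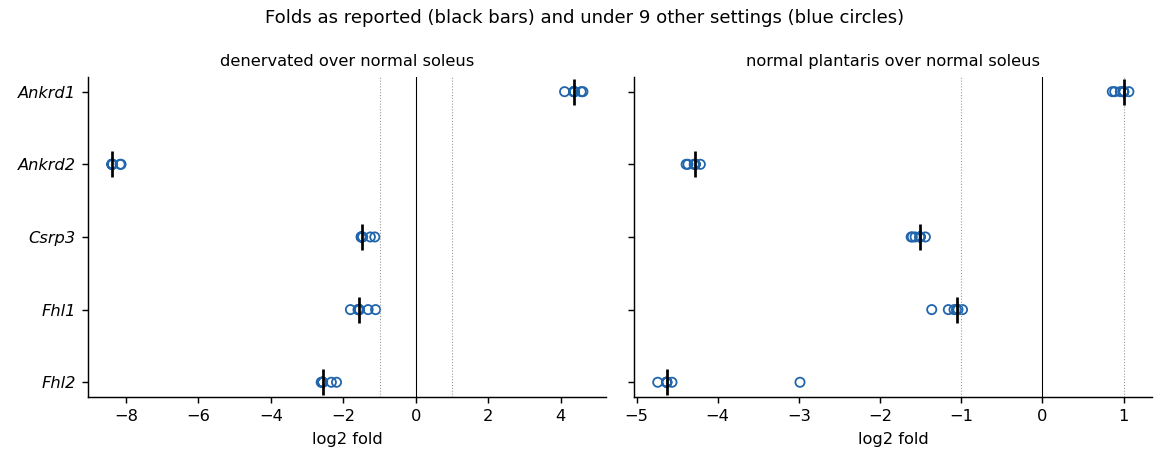
Log2 fold of the 5 genes as reported (black bars) and under 9 other settings of background, scaling, filter and summary (blue circles), in denervated over normal soleus (left) and plantaris over normal soleus (right). No circle crosses 0, the circles of Ankrd1 at right straddle 2-fold, and 1 circle of Fhl2 at right, with normexp background, lies at -2.99 against -4.63 as reported.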

How the data were processed

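The authors' deposited scanner files hold a processed signal, an intensity on a linear scale made with Agilent Feature Extraction 10.10.1.1, background-subtracted within the array and not normalized between arrays, per the file headers. The authors' deposited value table equalled that intensity times 1.41 for denervated soleus, 1.80 for plantaris and 1.60 for normal soleus; the origin of these factors is unknown here, its direction is that of the signal, no centring of genes was found, and its column medians were 243.3, 180.5 and 203.7.

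Here the log2 processed signal was centred on the 75th percentile of each array's non-control spots, spots with outlier flags (467 to 569 per array) were left out, and repeat spots were averaged. A probe counted as well above background if at least 50 percent of its spots did, and the brightest probe stood for a gene. Of 30367 probes 18005 were named through the RefSeq accessions of build GRCr8, and 12362 were not and were left out; the array was designed on an older build, so no gene positions are given beside the promoter windows. Genes well above background on at least 1 of 2 arrays entered a comparison. Where only 1 array measured a gene, the fold is a bound against the higher of the other array's signal and its faintest signal well above background. A difference of 2-fold is a rule on size. The calculation of folds was run on simulated data with known changes. All simulated arrays had the same base levels, so the run did not try the scaling between arrays.

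The genes, lists and settings were chosen with earlier results of these data known. Named genes are the 6, their families, the 4 list genes with the largest folds in either comparison over normal soleus, any past 2-fold against the list median, and the 3 nearest in pattern. Trim54, Trim55, Trim63, Smpx, Srf, Ccn1, Bag3, Pdlim7 and Cnn1 were added after their values were seen. The other settings were normexp background (limma 3.58.1, offset 50, on median spot signal, since the files used hold no mean signal), quantile normalization, centring on the median, the authors' values, 2 other filters on dim probes, outlier spots kept, a mean over probes and a median of repeat spots. Python 3.11.15 was used for the rest. A further result is not reported here.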

Additional observations from a re-analysis of the deposited data

How the results depend on the processing

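With normexp background 367 genes were at least 2-fold higher and 1001 lower in denervated over normal soleus, against 988 and 1518 in the main setting, 309 and 282 in plantaris over normal soleus against 629 and 673, and 504 higher in denervated soleus over plantaris against 1363. With the authors' values 1568 were higher in denervated over normal soleus, and 2456 higher and 1213 lower in denervated soleus over plantaris, against 1363 and 1899. The share of higher genes among those past 2-fold in denervated over normal soleus was 39.4% in the main setting, 26.8% with normexp background and 58.6% with the authors' values, and in denervated soleus over plantaris 41.8%, 27.8% and 66.9% in the same order. The authors' values carry a constant factor per array and were not centred again here. With them the median of all genes was 0.26 in denervated and -0.08 in plantaris over normal soleus. In denervated soleus over plantaris that median was 0.36. Among genes well above background on both arrays 433 were lower in plantaris over normal soleus.

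Of the 5 genes, 0 were at least 2-fold higher in plantaris over normal soleus with normexp background, quantile normalization and the authors' values, because Ankrd1 dropped below 2-fold there. With normexp background 1 in place of 2 was higher in denervated soleus over plantaris, since Fhl2 came to 0.80. No gene past 2-fold changed sign among the 5. The cause of the shifts with normexp background and quantile normalization was not tested. No paired analysis was possible because each group has 1 array. Faint signal limits Fhl2 in plantaris most, as its spots lay little above their local background.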
